A study of Mus musculus with 8 samples.

Results

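The genes described here are 42 mouse germline and pluripotency genes, among them the X-linked homeobox gene Rhox5. They were taken by name: the machinery of germ granules and piRNAs, the meiotic chromosome axis and recombination, germ cell RNA-binding proteins, other testis genes, the specification factors of primordial germ cells, and the core and early-embryo pluripotency genes. Of the 42 genes, 40 had a probe set annotated to that gene alone, 51 probe sets in all, out of 18161 named genes on the array. Tdrd6 and Nanos3 had none and have no value here.

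The samples were total RNA from 2 mouse cell lines, with 1 array for each sample and 8 arrays in all. NIH3T3 is an embryonic fibroblast line and B16F10 a melanoma line, and both were grown in serum-supplemented medium. Cells were infected overnight with virus in the presence of polybrene to carry PGC7, also known as Stella or Dppa3. NIH3T3 gave 1 control array and 3 arrays labelled PGC7, which were clone 1, clone 2 and cells taken before cloning, called uncloned below. B16F10 gave 1 control array and 3 arrays labelled PGC7, each from a separate clone. The sources used here do not give the promoter that drives PGC7, whether the controls received an empty virus, or whether a control was a clone. Titles set the groups, because the genotype field of all 6 PGC7 samples names PGC8 and pre-cloned cells. The probe set for Dppa3 (1424295_at) did not settle the labels. It read 69.8 in the NIH3T3 control and 29.7, 55.4 and 101 in clone 1, clone 2 and the uncloned cells, with limma adjusted p = 0.801. It read 23.5 in the B16F10 control and 70.0, 117 and 71.0 in clones 1, 2 and 3, with adjusted p = 0.271. Whether that probe set lies in the sequence the virus carried was not stated by any source used here. "PGC7 array" below therefore means an array labelled so.

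Germline genes are silent in most somatic cells. Many of them have promoters rich in CpG dinucleotides whose silencing depends on DNA methylation, and they are read out only when the germ line forms or when that silencing is lost. PGC7 is a maternal and germ cell protein that guards DNA methylation of the maternal genome in the zygote and can also block the maintenance of methylation. Rhox5, first named Pem, encodes a homeobox protein of a reproductive gene cluster on chromosome X. It is made in Sertoli cells, the ovary, the placenta and many tumour lines.

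The start regions of 3 members whose signals are described below are shown first, since their CpG content differs widely. Each is the 300 bases from 250 before to 50 after a transcription start in RefSeq, assembly GRCm38.p6, read 5′ to 3′ on the strand of the gene. Capitals mark CpG dinucleotides. The windows are chrX:37754358-37754657 on the plus strand for Rhox5, chr5:107330944-107331243 on the plus strand for Brdt and chr7:81454709-81455008 on the minus strand for Cpeb1.
Rhox5: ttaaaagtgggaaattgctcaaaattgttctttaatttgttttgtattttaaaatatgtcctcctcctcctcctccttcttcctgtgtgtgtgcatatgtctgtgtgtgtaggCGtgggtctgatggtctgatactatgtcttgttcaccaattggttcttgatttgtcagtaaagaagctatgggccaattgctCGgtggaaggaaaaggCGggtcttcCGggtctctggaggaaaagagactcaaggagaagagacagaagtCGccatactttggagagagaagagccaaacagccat
Brdt: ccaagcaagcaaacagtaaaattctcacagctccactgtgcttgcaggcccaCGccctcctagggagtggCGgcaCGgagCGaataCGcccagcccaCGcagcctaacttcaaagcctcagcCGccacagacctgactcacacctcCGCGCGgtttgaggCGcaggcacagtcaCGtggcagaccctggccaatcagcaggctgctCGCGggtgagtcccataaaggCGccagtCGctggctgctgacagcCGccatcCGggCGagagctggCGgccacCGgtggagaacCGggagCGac
Cpeb1: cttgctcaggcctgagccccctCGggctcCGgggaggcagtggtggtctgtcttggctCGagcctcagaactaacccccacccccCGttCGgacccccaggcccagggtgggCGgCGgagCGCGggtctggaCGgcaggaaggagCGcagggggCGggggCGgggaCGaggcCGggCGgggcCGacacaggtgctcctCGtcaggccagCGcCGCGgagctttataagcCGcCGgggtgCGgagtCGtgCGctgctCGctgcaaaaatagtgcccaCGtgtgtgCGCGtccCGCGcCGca

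The Rhox5 window held 5 CpGs, the Brdt window 23 and the Cpeb1 window 33. Windows were on file for 30 of the 40 measured members, and Nxf3, Tex11 and Dppa2 were not among them. Taking for each gene its window with the most CpGs, the median was 19.5 CpGs, with a range from 4 to 38, against a median of 8 over 27018 genes. The ratio of observed to expected CpGs had a median of 0.714 in the members and 0.413 over all genes. By its only window on file, Rhox5 lay among the poorest of the members in CpGs. The start used can decide such a count, since the windows of Tdrd7 held 4, 32 and 32 CpGs. No other start of Rhox5 was examined. The 12 members with a signal above the detection floor defined below had a median of 17.5, and the 18 at or under it had 20.5.

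Short motifs were searched on both strands of these windows, and each of them contains a CpG. CACGTG, the E-box core read by MYC and MAX family proteins, stood in the windows of 12 of 30 members (40.0%) and of 7.40% of all genes. Brdt and Cpeb1 each held 1 copy, and Rhox5 held none. CACGTG was in 3 of the 12 member windows with a signal above the floor and in 9 of the 18 without. TCCCGC, found in sites of E2F factors, was in 11 of 30 (36.7%) against 21.1% of all genes, with 1 copy in Cpeb1. CCGGAAG, the core of ETS family sites, was in 4 of 30 (13.3%) against 9.38%, and Rhox5 was 1 of these 4. These are matches of letters in RefSeq windows, and no binding was measured. The shares were not adjusted for the higher CpG content of the member windows, so they show no preference for a motif.

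**Figure D1:**
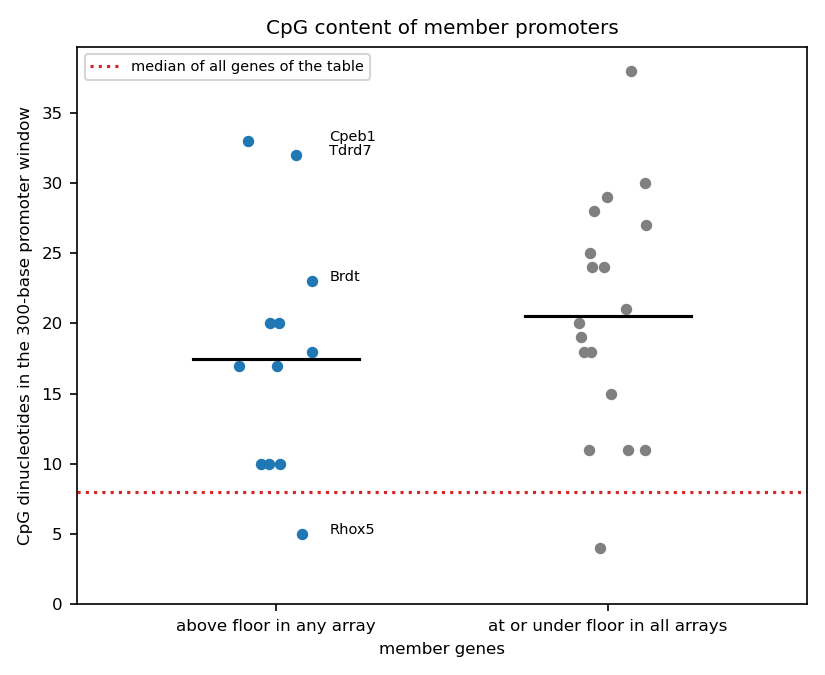
Number of CpG dinucleotides (vertical axis) in the 300-base window at the start of each member gene, for the 12 genes with a signal above the floor on any array and the 18 at or under it on all 8. Points are genes, black lines are group medians (17.5 and 20.5), and the dotted line is the median of 8 over all genes, which most members exceed.

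All levels are MAS5 signals scaled here to the same trimmed mean of 500 on each array, so they are relative to the bulk of each array. A signal is a probe set's own scale, and levels are not compared between genes. The median of all scaled signals, 49.1, served as the detection floor. The cell line labels were borne out by marker genes: 7 of 8 fibroblast markers were higher on every NIH3T3 array than on any B16F10 array, and 8 of 8 melanocyte markers were the reverse. No hybridisation dates are given, and a batch of arrays cannot be told apart from the cell line. Nothing says how the clones were kept apart in culture, so p-values measure the spread between these arrays. The uncloned NIH3T3 cells were labelled as taken before cloning, so the NIH3T3 clones may derive from them. The PGC7 arrays of NIH3T3 were fitted as replicates but may not be independent. In bulk RNA, fewer expressing cells and less RNA per cell cannot be told apart.

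Most members were near or under the floor in both lines. A signal above the floor on at least 1 array was found for 22 of 51 member probe sets (43.1%), against 66.9% of all 45037 probe sets. By gene this was 19 of 40 members (47.5%) against 73.5% of 18161 genes. Only 6 members, or 15.0%, exceeded a signal of 200 on any array, against 55.9% of all genes. These 6 were Rhox5, Brdt, Tdrd7, Cpeb1, Tex11 and Dppa2.

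The number of member probe sets above the floor was 13 in the NIH3T3 control and 10, 12 and 8 in its clone 1, clone 2 and uncloned cells. It was 3 in the B16F10 control and 4, 6 and 7 in clones 1, 2 and 3. In the values as deposited the counts were 5 in the NIH3T3 control and 7, 6 and 4 in its PGC7 arrays, so the first place of the NIH3T3 control came with the scaling. In that control Sycp2, Asz1, Taf7l, Tex14, Dmc1, Lin28a, Dppa5a and Brdt (1444667_at) exceeded the floor only after scaling. The B16F10 counts were the same on both scales. Over all probe sets the share above the floor was 52.3% to 55.7% in NIH3T3 and 46.0% to 46.7% in B16F10. All 4 X-linked members, Rhox5, Nxf3, Tex11 and Taf7l, exceeded the floor on some array, against 67.0% of 619 X-linked genes. Of the 36 autosomal members 15 did (41.7%). Taf7l exceeded the floor on 1 array only. The members were picked by name with earlier results known, and of 17 other X-linked reproductive genes with a probe set 4 exceeded it (23.5%).

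The 21 members at or under the floor on all 8 arrays include the genes most used to recognise these cell types. Among them were the pluripotency factors Pou5f1, Sox2, Nanog and Zfp42, and the germ cell specification factor Prdm14. The germ cell RNA helicase Ddx4 and the RNA-binding protein Dazl were also under it. So were the piRNA pathway genes Piwil1, Piwil4, Mov10l1, Mael and Tdrd1, and Tex101, a testis surface protein. The meiotic genes Sycp1, Sycp3, Hormad1, Rec8, Smc1b, Stag3, Spo11 and Tex15 completed the list. Their 23 probe sets read 0.297 to 37.8, with a median of 3.55.

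**Figure D2:**
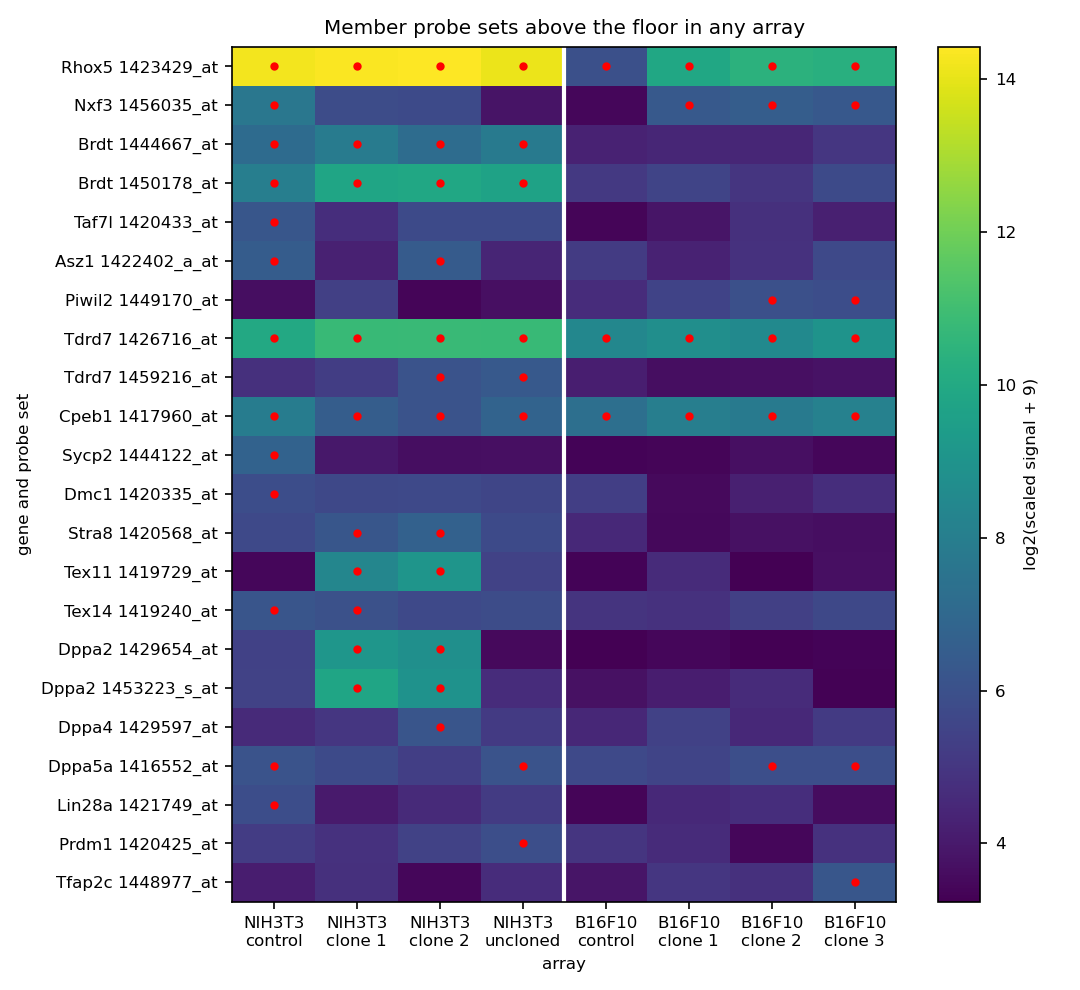
Signals of the 22 member probe sets above the floor on at least 1 array (rows) on the 8 arrays (columns), coloured by log2(scaled signal + 9), with a red dot where the signal exceeds 49.1. Rhox5 is high on all 4 NIH3T3 arrays and on the 3 PGC7 arrays of B16F10, and few other rows are dotted in B16F10.

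Changes between PGC7 and control were tested on log2(signal + 9) with limma across 25269 probe sets, with Benjamini-Hochberg adjustment over all of them, and called at an adjusted p under 0.05. Fold changes on this scale understate those of low signals. Each control is 1 array with no spread of its own and was taken to have the spread of the PGC7 arrays. The filter, a mean log2(signal + 9) over the 4 arrays of a line of at least that of the floor, kept 10 member probe sets of 8 genes. Of these, 7 passed through the NIH3T3 arrays alone, and Rhox5, Tdrd7 (1426716_at) and Cpeb1 passed in both lines. The other 41 member probe sets, including every probe set of 32 genes, were not tested.

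Rhox5 changed in B16F10 and not detectably in NIH3T3. Its probe set, 1423429_at, read 54.0 in the B16F10 control and 939, 1355 and 1227 in clones 1, 2 and 3. The control lay just above the floor and every clone far above it, with a mean of 1173 ± 213 (SD, n = 3). The signal was 21.7 times the control's, and the log2 change was 4.21 ± 0.21 (SE) with limma adjusted p = 0.000236. Only 3 of 25269 tested probe sets, itself included, rose as much or more in B16F10. The call held under all 14 alternatives tried, with log2 changes from 3.79 to 4.40.

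In NIH3T3 Rhox5 was high on the control and PGC7 arrays alike. It read 19260 in the control and 20977, 21890 and 17197 in clone 1, clone 2 and the uncloned cells. The control fell inside the range of the PGC7 arrays, whose mean was 20021 ± 2488 (SD, n = 3), and the log2 change was 0.05 ± 0.21 (limma adjusted p = 0.911). The change in B16F10 exceeded that in NIH3T3 by 4.17 ± 0.30 (limma adjusted p = 0.000462), a difference that held under all 13 alternatives. Even on its PGC7 arrays, B16F10 stayed below NIH3T3. The log2 difference between the PGC7 arrays of the lines was 4.09 ± 0.15 (limma adjusted p = 1e-07).

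On the RefSeq assembly the protein-coding neighbours of Rhox5 are Rhox2h and Rhox6. Rhox6 (1419018_at) read 1.54 to 7.63 across all 8 arrays, under the floor throughout. Rhox9 (1449540_at), another homeobox gene of the cluster, read 52.5 in the NIH3T3 control and 39.1, 47.4 and 52.0 in its PGC7 arrays, close to the floor on each. In B16F10 it read 8.09 in the control and 8.93, 2.77 and 3.37 in the clones. Of 42 X-linked reproductive genes listed for comparison 17 had a probe set, 4 exceeded the floor on some array, and none passed the filter.

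Nxf3, a member of the mRNA export factor family and also X-linked, stood on opposite sides of its control in the lines. In NIH3T3 it read 194 in the control and 48.8, 44.9 and 5.41 in clone 1, clone 2 and the uncloned cells, so only the control exceeded the floor. In B16F10 it read 1.81 in the control and 72.7, 84.5 and 71.8 in the clones, so only the clones did. The filter kept Nxf3 out of the test, since its mean log2(signal + 9) reached that of the floor in neither line, although its mean signal did. With no filter, the log2 change was −2.51 ± 0.79 in NIH3T3 (limma adjusted p = 0.108) and 2.98 ± 0.79 in B16F10 (adjusted p = 0.197). Neither was called, while the difference of the changes, 5.49 ± 1.11, was called without the filter (adjusted p = 0.0416).

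Brdt, a testis bromodomain protein that reads acetylated histones in spermatogenic cells, rose in NIH3T3. Probe set 1450178_at read 253 in the control and 884, 932 and 813 in clone 1, clone 2 and the uncloned cells, with no overlap. The mean of the PGC7 arrays was 876 ± 59.8 (SD, n = 3), 3.46 times the control. The log2 change was 1.75 ± 0.35 with limma adjusted p = 0.014, and it stayed called under all 14 alternatives. In B16F10 the same probe set was under the floor, at 25.7 in the control and 36.8, 22.0 and 44.9 in the clones. The difference between the changes was −1.46 ± 0.49 (limma adjusted p = 0.118), so the rise was not shown to differ between the lines.

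The probe sets of Brdt did not behave alike. Another, 1444667_at, read 131.5 in the NIH3T3 control and 225, 135 and 217 in the PGC7 arrays, with a log2 change of 0.49 ± 0.45 (limma adjusted p = 0.529). Clone 2 lay beside the control there. The remaining 1, 1435502_a_at, was under the floor on every array. Taf7l, an X-linked TFIID subunit variant of germ cells, read 66.2 in the NIH3T3 control and 17.1, 45.3 and 44.7 in the PGC7 arrays, and at most 19.0 in B16F10.

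**Figure D3:**
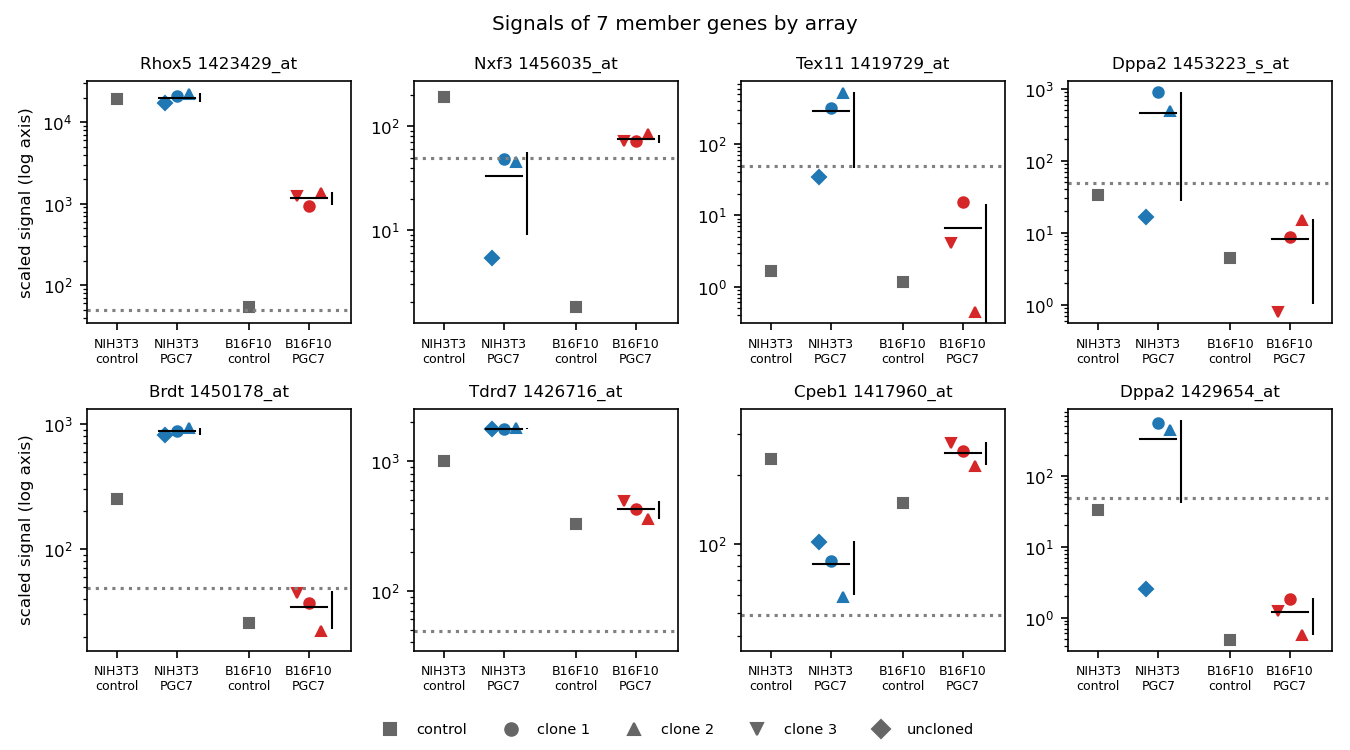
Scaled signals (log axis) of 8 probe sets of 7 members on each array, with controls as grey squares and PGC7 arrays in blue for NIH3T3 and red for B16F10. Horizontal lines are means of the 3 PGC7 arrays, vertical bars their SD (running to the lower edge where the SD exceeds the mean), and the dotted line is the floor of 49.1. Rhox5 separates the B16F10 control from its clones, and Tex11 and Dppa2 separate the uncloned NIH3T3 cells from both clones.

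Among germ granule and piRNA genes, Tdrd7 was well above the floor on all 8 arrays. Tdrd7 is a Tudor domain protein of germ granules that is also made in the lens. Probe set 1426716_at read 995 in the NIH3T3 control and 1764, 1791 and 1761 in the PGC7 arrays, a mean of 1772 ± 16.5 (SD, n = 3). The PGC7 arrays lay 1.78 times above the control and close to each other. The log2 change was 0.83 ± 0.19 with limma adjusted p = 0.0238. Of 14 alternatives 8 kept this call; the values as deposited gave 0.69 with adjusted p = 0.112, and leaving out clone 1 or clone 2 of NIH3T3 gave adjusted p = 0.0522 and 0.0534.

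In B16F10 Tdrd7 read 327 in the control and 425, 359 and 490 in the clones, and its log2 change was 0.36 ± 0.19 (limma adjusted p = 0.423). The other Tdrd7 probe set, 1459216_at, read 19.0 in the NIH3T3 control and 30.1, 58.7 and 73.5 in the PGC7 arrays. It was under 10 throughout B16F10. Asz1, an ankyrin repeat protein of piRNA granules (1422402_a_at), exceeded the floor in the NIH3T3 control at 81.8 and in clone 2 at 77.9. Clone 1 and the uncloned cells read 10.2 and 12.1, so Asz1 did not follow the label. Piwil2, a piRNA-binding protein, barely reached the floor and did so in B16F10, with 16.1 in the control and 35.2, 53.3 and 49.1 in the clones.

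Cpeb1, an RNA-binding protein that controls the translation of stored mRNAs in oocytes, fell in NIH3T3. It read 235 in the control and 84.8, 59.1 and 102 in clone 1, clone 2 and the uncloned cells, a mean of 82.0 ± 21.6 (SD, n = 3). The control was 2.87 times that mean, and the log2 change was −1.45 ± 0.34 with limma adjusted p = 0.0256. The call was kept under 10 of 14 alternatives, and without B16F10 clone 1 or clone 3 its adjusted p was 0.0599 and 0.0504. Scaling to the poly-A spikes gave −1.07 with adjusted p = 0.149.

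In B16F10 Cpeb1 read 151 in the control and 253, 219 and 275 in the clones, all above the control. The log2 change of 0.68 ± 0.34 was not called (limma adjusted p = 0.389). The difference between the changes was 2.13 ± 0.47 (limma adjusted p = 0.0337). It kept its direction under all 13 alternatives and its call under 5. Leaving out NIH3T3 clone 1 gave adjusted p = 0.0558, and leaving out B16F10 clones 1, 2 and 3 gave 0.0930, 0.0678 and 0.0880.

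Of the meiotic genes, Tex11 ranged widely between arrays labelled PGC7. It is an X-linked gene needed for crossing over in male meiosis. It read 1.67 in the NIH3T3 control, 318 in clone 1, 526 in clone 2 and 34.1 in the uncloned cells. Both clones were far above the floor, while the control and the uncloned cells were under it. The log2 change was 4.20 ± 1.22 (limma adjusted p = 0.0577), and without the uncloned cells it was 5.29 (adjusted p = 0.00104). The array left out was the lowest of the NIH3T3 PGC7 arrays. The second fit was therefore bound to give a larger change and adds no separate evidence. Poly-A spike scaling with all arrays kept also called Tex11 higher. That scaling moved the median NIH3T3 change over all tested probe sets from −0.08 to 0.29. In B16F10 all 4 arrays were under the floor, at 1.15 in the control and 15.3, 0.441 and 4.1 in the clones.

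Stra8, the retinoic acid responsive gatekeeper of meiosis, read 43.4 in the NIH3T3 control and 65.1, 95.0 and 44.3 in the PGC7 arrays. Its log2 change of 0.51 ± 0.53 was not called (limma adjusted p = 0.582), and B16F10 read 14.0 in the control and 2.15 to 4.6 in the clones. Sycp2, a protein of the synaptonemal complex axis, exceeded the floor in the NIH3T3 control alone, at 99.7, with 6.5, 3.7 and 3.8 in the PGC7 arrays. The filter left it out. With no filter its log2 change in NIH3T3 was −2.999 ± 0.37 (limma adjusted p = 0.0027), and the difference of the changes was 3.14 (adjusted p = 0.0205). Dmc1, the meiotic recombinase (1420335_at), read 50.5 in the NIH3T3 control and 39.3 to 43.4 in the PGC7 arrays, all beside the floor. Tex14, a protein of germ cell bridges, read 63.0 in the NIH3T3 control and 55.4, 43.8 and 47.8 in the PGC7 arrays, and 19.3 to 42.3 in B16F10. The meiotic cohesin genes Rec8, Smc1b and Stag3 were all under the floor.

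Among pluripotency genes, Dppa2 was the only one above a signal of 200, and it was high in the NIH3T3 clones. Dppa2 is a DNA-binding protein of pluripotent cells and early embryos that acts with Dppa4 on germline and early-embryo genes. Probe set 1453223_s_at read 33.9 in the control, 890 in clone 1, 489 in clone 2 and 16.6 in the uncloned cells. Probe set 1429654_at read 32.7, 552, 441 and 2.54 in the same order, so both probe sets split the clones from the other 2 arrays. Neither was called, with log2 changes of 2.39 ± 1.63 (limma adjusted p = 0.382) and 1.78 ± 1.82 (adjusted p = 0.573). Without the uncloned cells both were, at 3.96 (limma adjusted p = 0.00306) and 3.59 (adjusted p = 0.00134). The array left out was the PGC7 array that read under the control, so a larger change was bound to follow. These calls add no separate evidence of a change. Of 14 alternatives 2 called each probe set, the fit without the uncloned cells and poly-A spike scaling with all arrays kept. On B16F10 arrays both probe sets were under the floor, at most 15.3.

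Dppa2 lies between Dppa4 and Morc1 on chromosome 16. Dppa4 (1429597_at) read 15.0 in the NIH3T3 control and 23.2, 64.2 and 25.8 in clone 1, clone 2 and the uncloned cells, so clone 2 alone exceeded the floor. Morc1, a germline ATPase gene on the other side (1419418_a_at), read 0.851 to 5.94 on all 8 arrays. Dppa5a, an RNA-binding protein of embryonic stem cells, stayed beside the floor at 30.3 to 59.9 in NIH3T3 and 37.1 to 51.7 in B16F10. Lin28a, which blocks let-7 processing, had its highest signal, 49.3, in the NIH3T3 control. Of the specification factors, Prdm1 read 51.0 in uncloned NIH3T3 cells and at most 34.2 elsewhere. Tfap2c (1448977_at) exceeded the floor in B16F10 clone 3 alone, at 67.0.

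By count, 2 of the 10 tested member probe sets rose in NIH3T3 (Brdt and Tdrd7) and 1 fell (Cpeb1), where 6.47% of all tested probe sets rose and 6.31% fell. In B16F10 1 of 10 rose (Rhox5), where 0.922% of all rose. None fell there, also at an unadjusted p under 0.05 by limma, where 0.265% of all were called lower. The difference of the changes was called higher in B16F10 for 2 of 10 (Rhox5 and Cpeb1), against 3.8% of all. It was called lower for 0 of 10 by limma, with 1 at an unadjusted p under 0.05, against 3.08% of all. With counts this small the shares say little about the members as a group. The median log2 change of the 10 was 0.67 in NIH3T3 and 0.33 in B16F10, against −0.08 and 0.02 over all tested probe sets. Because 7 of the 10 were kept through their NIH3T3 signal alone, these medians describe the probe sets that passed and not the members. Each filter mean held 3 PGC7 arrays and 1 control, so it favoured probe sets higher on PGC7 arrays, which affects the counts too. Sycp2, above the floor in the NIH3T3 control alone and only after scaling, was left out. It was called lower in NIH3T3 with no filter (limma adjusted p = 0.0027).

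**Figure D4:**
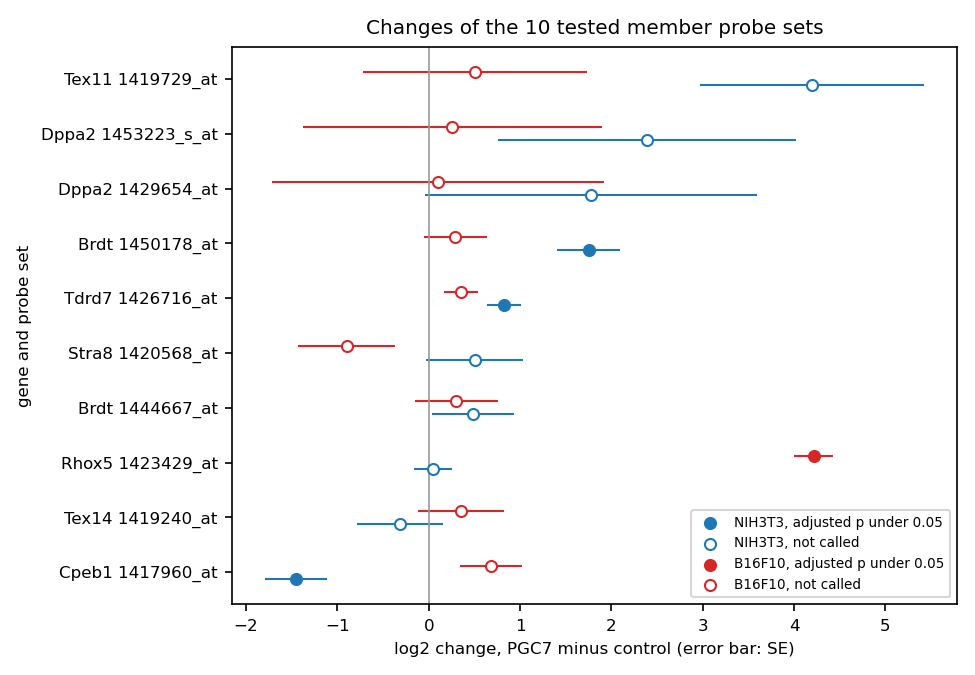
Log2 change between PGC7 and control arrays (horizontal axis, ± SE) of the 10 tested member probe sets in NIH3T3 and B16F10, with filled points for changes called at an adjusted p under 0.05. Rhox5 stands at 4.21 in B16F10 and 0.05 in NIH3T3, and Cpeb1 lies at −1.45 in NIH3T3 and 0.68 in B16F10.

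Of the 10 tested probe sets 7 had passed the filter through NIH3T3 alone, which favours a higher level there, so their line differences are given as counts only. Among PGC7 arrays, 8 of the 10 probe sets were higher in NIH3T3 and 1, Cpeb1, was lower, where 40.2% of all were higher and 30.9% lower. Tdrd7 (1426716_at), which passed in both lines, was higher in NIH3T3 by 2.05 ± 0.13 (limma adjusted p = 2.16e-06). Cpeb1, which also passed in both, was lower by a log2 difference of −1.53 ± 0.24 (adjusted p = 0.000447). These sizes depend on scaling: with the values as deposited the differences were 0.45 for Tdrd7, −2.86 for Cpeb1 and 2.47 for Rhox5, and the median over all tested probe sets was −1.33 in place of 0.19.

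Wider lists of germline and pluripotency genes were counted with 1 probe set a gene. Over all 11643 tested genes 7.87% rose and 7.33% fell in NIH3T3, and 1.18% rose and 0.386% fell in B16F10. Of 31 meiosis genes with a probe set 12 were tested, and 1, the recombination gene Rad51c (1438453_at), fell in NIH3T3. Its log2 change was −1.32 with limma adjusted p = 0.0297. Rad51c read 310 in the NIH3T3 control and 135, 85.6 and 142 in the PGC7 arrays, while its other tested probe set, 1423026_at, was not called (log2 −0.60, adjusted p = 0.22). Msh5, a meiotic MutS protein, was not called by the probe set that stood for it, 1430771_a_at (log2 1.02, adjusted p = 0.435). Another Msh5 probe set, 1449537_at, rose in NIH3T3 from 12.9 to 98.6, 72.8 and 138 (log2 2.31, limma adjusted p = 0.0213). Of 26 pluripotency genes 10 were tested and 3 rose in NIH3T3, none in B16F10, where 2 did at an unadjusted p under 0.05 by limma. The 3 that rose in NIH3T3 were Tbx3 (1448029_at, log2 2.08), Klf5 (1451021_a_at, 1.25) and Jarid2 (1422698_s_at, 1.00). All of them are also used outside pluripotent cells. Each is given by 1 probe set, and the other probe sets of these genes are not described. The median log2 change in NIH3T3 was −0.07 for the meiosis genes and −0.11 for the pluripotency genes, against −0.04 over all genes. In B16F10 it was 0.12 and 0.37 against 0.05.

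The piRNA, spermatid and oocyte lists had 5 tested genes each, and none was called in either line by limma. At an unadjusted p under 0.05, 2 spermatid genes were higher in NIH3T3, and no other tested gene of these lists passed that mark in either line. Their median log2 changes were −0.32, 0.22 and 0.13 in NIH3T3 and 0.17, 0.36 and 0.22 in B16F10.

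Markers of the cell types that normally express Rhox5 and its fellows were measured beside these results. The summed signal of the germ cell markers Ddx4, Dazl, Mael, Sycp3 and Stra8 was 74.7 in the NIH3T3 control and 71.7 to 115 in its PGC7 arrays, with Stra8 in the clones the only one above the floor. In B16F10 the sum was 43.5 in the control and 19.3 to 67.8 in the clones, with none above the floor. For 23 genes of gonadal somatic cells, such as Sertoli and granulosa cells, the sum was 2537 in the B16F10 control and 2150 to 2230 in the clones, while 2 of the genes exceeded the floor in the control and 4, 5 and 4 in the clones. The median log2 change of the tested genes of that list in B16F10 was 0.49, against 0.05 over all genes. In NIH3T3 the sum was 6070 in the control and 6720 to 7261 in the PGC7 arrays. With 1 probe set a gene, 1 tested gene of that list was called lower in NIH3T3 by limma and none higher. Of the 12 tested genes of that list, none was called in B16F10 with 1 probe set a gene, and 1 was lower at an unadjusted p under 0.05 by limma. Another probe set of Sox9 (1424950_at), a Sertoli cell factor also made in melanocytes, rose there with a log2 change of 2.25 (limma adjusted p = 0.0058). The part of these markers in the Rhox5 result was not tested.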

How the data were processed

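The members and gene lists were chosen with earlier results of these data known. RNA was biotin-labelled and read on 1-colour Affymetrix arrays; the authors deposited MAS5 signal intensity values, per the submitters' processing notes. The deposited B16F10 arrays had a trimmed mean (2% cut at each end) of 500 and the NIH3T3 arrays 143 to 189, so each array was multiplied to a trimmed mean of 500. Of 45101 probe sets 64 controls and 19768 below the floor were left out. log2(signal + 9) was fitted with limma 3.58.1 in R 4.3.3, with group means over 8 arrays, an intensity trend and 8.50 degrees of freedom, after tests on simulated data. Gene symbols came from GEO's platform table: 34958 probe sets had 1 symbol, 932 several and 9211 none. The genes named are all members, Dppa3, some chromosomal neighbours, some cell type markers, and the called genes of the meiosis and pluripotency lists. Speer4a, Msh5 and Sox9 were named for a single probe set. The genes called lower in NIH3T3 among the gonadal, fibroblast and melanocyte markers are not named. Alternatives were the values as deposited, quantile and poly-A spike scaling (27 spike probe sets), pseudocounts of 1 and 32, no filter, no trend, each line alone, and leaving out each PGC7 array. With 1 array a control could not be left out. The number of arrays limits the precision.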

Additional observations from a re-analysis of the deposited data

Results flagged for a closer look

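The change between PGC7 and control arrays differed between the lines for 2 members, by a test of the difference itself in limma over all 25269 tested probe sets. For Rhox5 the change in B16F10 minus the change in NIH3T3 was 4.17 ± 0.30 on the log2 scale (adjusted p = 0.000462), with signals of 54.0 against 939 to 1355 in B16F10 and 19260 against 17197 to 21890 in NIH3T3. For Cpeb1 it was 2.13 ± 0.47 (adjusted p = 0.0337), with signals of 151 against 219 to 275 in B16F10 and 235 against 59.1 to 102 in NIH3T3. The Rhox5 difference stayed called under all 13 alternatives and the Cpeb1 difference under 5 of 13, with adjusted p up to 0.18.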

How the results depend on the processing

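No paired analysis was possible because each control group is 1 array with no clone number. Over 540 comparisons of a single member probe set under an alternative, 501 stayed on the same side of the threshold, 27 lost the call and 12 gained it. None of the 199 that concern a called change turned its sign; 8 that concern an uncalled one did. In NIH3T3, where 2 member probe sets were called higher and 1 lower, the number called higher was 1 with the values as deposited, 5 with poly-A spike scaling, 1 with no trend and 1 with the line fitted alone, and 1 to 5 when a PGC7 array was left out. The 5 without the uncloned cells were Brdt, Tdrd7, Tex11 and both of Dppa2, and the 5 with poly-A spike scaling were the same. For Tex11 and Dppa2 the array left out was the lowest of the NIH3T3 PGC7 arrays. The number called lower was 0 with poly-A spike scaling, 2 with no filter (Cpeb1 and Sycp2), 0 with the line alone, and 0 to 1 on leaving out an array. The difference of the changes, higher for 2, was higher for 1 with quantile scaling, 1 with poly-A spike scaling and 1 with no trend, for 3 with no filter (Rhox5, Nxf3 and Sycp2, without Cpeb1), and for 1 to 2 on leaving out an array. It was lower for none in the main setting, 2 with poly-A spike scaling, 1 with a pseudocount of 32 and 0 to 3 on leaving out an array. The line difference was lower for 1, and for 3 with no filter. Of the 22 member probe sets above the floor, 8 exceeded a scaled signal of 200; in the values as deposited 12 exceeded 49.1. Over all 25269 probe sets the median change was −0.08 in NIH3T3 and 0.02 in B16F10; with poly-A spike scaling it was 0.29 and −0.40. The cause of these changes was not tested.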

Other observations

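The split seen at Dppa2, with both NIH3T3 clones at least 8-fold above both the control and the uncloned cells on the scale of signal + 9, was counted over all tested probe sets after its values had been seen. It was met by 5 of 25269 probe sets (0.0198%), of which 2 were the Dppa2 probe sets and 1 was Speer4a (1422726_x_at), a member of a testis gene family with near-identical copies. The other 2 had no gene symbol. The reverse, with both clones at least 8-fold below both other arrays, was met by 7 probe sets (0.0277%), none of them a member. Tex11, at 318 and 526 in the clones against 34.1 in the uncloned cells, missed the first count on that scale.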
